A study of Mus musculus with 6 samples.

Results

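The 9 genes *Csrp1*, *Csrp2*, *Csrp3*, *Fhl1*, *Fhl2*, *Fhl3*, *Ankrd1*, *Ankrd2* and *Ankrd23* encode the cysteine-rich LIM proteins (CSRP), the four-and-a-half LIM proteins (FHL) and the muscle ankyrin repeat proteins (MARP). They were chosen by gene symbol, 3 for each of 3 families, among 54525 gene rows in the deposited counts. C2C12 is an established mouse myoblast line, and all cultures were wild type (WT) without treatment. RNA-seq compared 3 libraries of proliferating myoblasts at day 0 (D0) with 3 libraries of myotubes after 5 days of differentiation (D5), for which the study moved cells from fetal bovine to a low level of horse serum, so that differentiation and the medium cannot be told apart. All libraries come from this single line, and whether those of a group came from separate passages or days is not stated, so the p-values measure only the spread between these libraries, which may be technical.

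A LIM domain is a pair of zinc fingers that binds other proteins and no DNA. CSRP proteins carry a pair of LIM domains and sit on actin bundles and, in striated muscle, at the Z-disc, where neighbouring sarcomeres are joined, while FHL proteins carry LIM domains only and shuttle between the cytoskeleton and the nucleus. The MARP proteins bind the spring region of titin, the giant filament of the sarcomere, and also enter the nucleus. Genes of all 3 families are known to respond to stretch or overload of muscle, for which they are called stress proteins.

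The libraries held 36555048 to 40895840 counts on genes at D0 and 25449759 to 25811300 at D5. Levels are given as CPM (counts in proportion to the library's total, with TMM scaling) where 1 gene is compared between groups, and as TPM (the same idea after dividing each count by the exonic length of its gene) where genes are compared with each other. The myotube markers *Myog*, *Mymk*, *Ckm*, *Acta1*, *Tnnt3* and *Myh3* were all higher at D5, with a summed level of 56.6 to 70.3 CPM in myoblasts and 11932 to 12763 CPM in myotubes, although the labels call the cells of both groups myoblasts. The 5 markers of proliferating myoblasts (*Mki67*, *Top2a*, *Ccnb1*, *Pax7* and *Myf5*) were all lower at D5. Of the markers of other cells, all 4 of fibroblasts (*Pdgfra*, *Dpt*, *Lum* and *Dcn*) were higher at D5, from a summed 1.33 to 1.64 CPM to 279.9 to 325 CPM, and *Lum* had 0 counts in every D0 library. Of the endothelial markers *Kdr* fell and *Pecam1* and *Cdh5* had at most 7 counts, of the immune markers *Cd68* fell and *Ptprc* and *Adgre1* had at most 1, and no adipocyte marker (*Adipoq*, *Plin1* and *Fabp4*) had enough counts to be tested. The part of such cells in the results was not tested. In bulk RNA, fewer cells of a type and less RNA per cell cannot be told apart.

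None of the 9 genes was lost to the filter that edgeR applies to low counts. Between D0 and D5, 5 genes fell (*Csrp1*, *Csrp2*, *Fhl1*, *Fhl2* and *Fhl3*), 3 rose (*Csrp3*, *Ankrd2* and *Ankrd23*), and *Ankrd1* did not pass the threshold. The threshold was 0.05 for p adjusted by the Benjamini-Hochberg method over 16290 genes, from the quasi-likelihood test of edgeR. By this test 40.8% of all genes tested were lower and 42.2% higher at D5, so a call alone says little about these genes, and the sizes of the changes carry the description. For each of the 8 genes with a call, the 3 D5 libraries lay entirely on one side of the 3 D0 libraries in CPM. Over all genes tested, 41.1% had every D5 library below every D0 library and 42.2% had every D5 library above. Scaling to the ERCC spike-ins, synthetic RNAs added to each sample, also gave 5 lower and 3 higher, although that scaling moved the median log2 fold change of all genes from 0.00 to -0.58 and the share of calls that were higher from 50.8% to 32.6%.

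**Figure D1:**
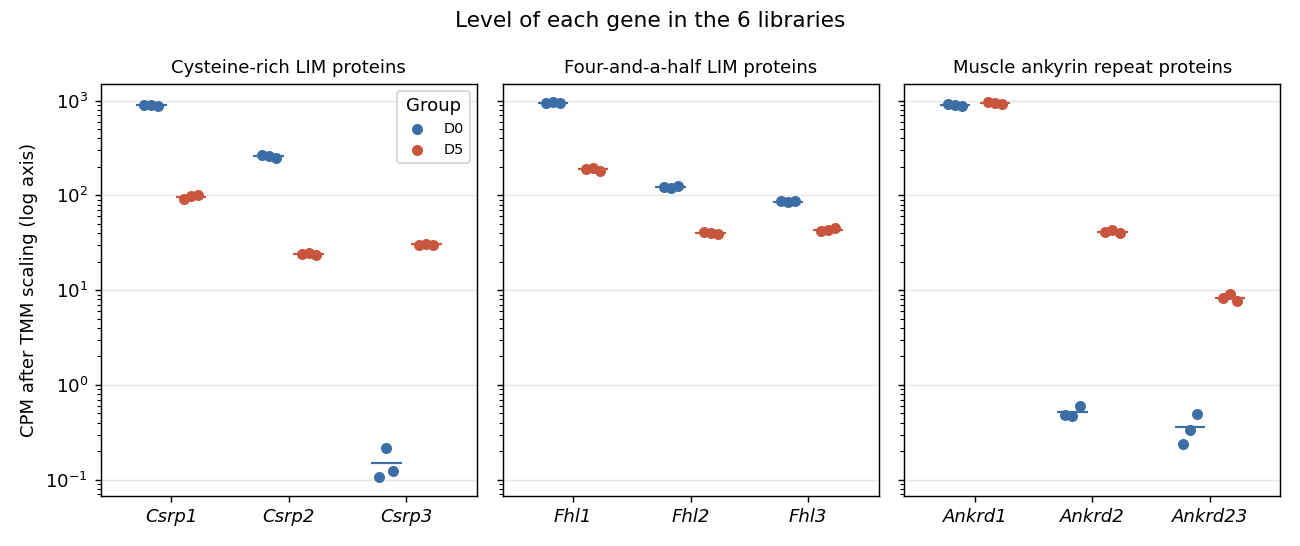
Level of each gene in CPM after TMM scaling, on a log axis, with 1 point per library (3 at D0 in blue, 3 at D5 in red) and a line at the mean of each group. *Csrp1*, *Csrp2* and the 3 FHL genes sat lower at D5, *Csrp3*, *Ankrd2* and *Ankrd23* sat higher, and the points of *Ankrd1* overlapped.

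Within the CSRP family, the members that dominated in myoblasts fell 9.22-fold and 10.7-fold and the striated muscle member appeared. *Csrp1* (ENSMUSG00000026421.14, chromosome 1 of GRCm38 from 135720061 to 135752232) encodes an actin-bundling partner of α-actinin and zyxin that is abundant in smooth muscle. Its 3 libraries stood at 895, 911 and 887 CPM before differentiation and at 92.4, 98.3 and 101 CPM after it. All D5 values were thus far below all D0 values, at 10.8% of the D0 level. The log2 fold change was -3.20 (SE 0.038, with edgeR's adjusted p = 5e-34), and 2.96% of the genes tested fell further.

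*Csrp2* (ENSMUSG00000020186.7, chromosome 10 from 110919789 to 110939622) encodes the second smooth muscle member, known from vascular smooth muscle cells. Its level was 264, 260.0 and 251 CPM in myoblasts and 24.2, 24.6 and 23.6 CPM in myotubes. The log2 fold change was -3.42 (SE 0.041, with edgeR's adjusted p = 7.8e-34), or 9.33% of the D0 level. The 95% interval of this change ran from -3.51 to -3.34 and that of *Csrp1* from -3.28 to -3.13, so the intervals did not overlap, while the difference between the genes was not itself tested.

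*Csrp3* (ENSMUSG00000030470.15, chromosome 7 from 48830398 to 48848033) encodes muscle LIM protein, a Z-disc protein of cardiac and skeletal muscle that promotes myogenic differentiation. Only 4, 9 and 5 counts fell on it at D0, compared with 762, 765 and 741 at D5. The D0 counts lay just above the 3 counts per library taken here as the limit of detection, and together they gave 0.150 CPM (95% exact Poisson interval 0.0891 to 0.238 CPM, for counting error only). Myotubes reached 30.4 ± 0.631 CPM (SD, n = 3). The log2 fold change was thus 7.62 (SE 0.13, with edgeR's adjusted p = 7.8e-30), or 197-fold, and 1.48% of the genes tested rose further.

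The smooth muscle markers gave a mixed picture beside *Csrp1* and *Csrp2*. *Cnn1* and *Actg2* fell from 155 and 424 CPM to 1.03 and 4.18 CPM, *Smtn* and *Lmod1* were not called, and *Myh11*, the defining myosin of smooth muscle, had at most 8 counts in any library. Of the cardiac markers beside *Csrp3*, *Nppa* and *Myl7* had at most 2 counts in any library, *Nppb* and *Nkx2-5* fell, and *Tnni3* and *Myh6* rose, the latter from 0, 1 and 0 counts to 584, 719 and 690 counts. *Myh6* is a paralog of the other myosin heavy chains, so its reads may be uncertain.

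In TPM, *Csrp1* made up 79.4% ± 0.367 of the summed CSRP level at D0 and 68.9% ± 1.25 at D5 (SD, n = 3 each). *Csrp2* went from 20.6% ± 0.369 to 15.4% ± 0.645, and *Csrp3* from 0.00959% ± 0.00361 to 15.8% ± 0.605 (SD, n = 3 each). Thus *Csrp1* remained the leading member in every library. At D5 *Csrp2* (33.4 to 35.3 TPM) and *Csrp3* (34.4 to 36.0 TPM) overlapped in level, whereas at D0 *Csrp2* had 412 TPM and *Csrp3* 0.192 TPM. This overlap held for the union of exons alone, since *Csrp2* and *Csrp3* took 20.1% to 21.7% and 14.4% to 15.5% of the family at D5 with the longest transcript, and 15.2% to 16.5% and 19.2% to 20.7% without a length, in opposite orders and without overlap. The summed level of the family was 1998 ± 30.3 TPM at D0 and 224 ± 3.31 TPM at D5 (SD, n = 3 each).

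The promoter of *Csrp3* is shown because *Csrp3* had the largest change of the 9 genes. The window runs from 250 bases before to 50 bases after the RefSeq start site (chr7:48848002-48848301, GRCm38, minus strand), written 5′ to 3′ along the gene, and capitals mark matches to the E-box CANNTG, the core bound by MyoD and myogenin.
*Csrp3* promoter: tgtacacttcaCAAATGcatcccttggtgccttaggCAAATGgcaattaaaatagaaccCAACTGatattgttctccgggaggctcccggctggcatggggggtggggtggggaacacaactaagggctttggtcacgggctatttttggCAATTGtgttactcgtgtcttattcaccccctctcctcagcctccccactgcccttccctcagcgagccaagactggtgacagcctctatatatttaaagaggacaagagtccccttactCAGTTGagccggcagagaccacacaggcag
This window holds 5 E-boxes, at -239, -214, -191, -100 and 20 from the start site, and the second *Csrp3* window holds 4. Among genes that fell, each *Csrp1* window holds 1, each *Fhl1* window 3, the *Fhl2* windows 3 and 1, and the *Fhl3* window 0. The start sites of the *Fhl1* windows lie 47554 and 54398 bases from that gene's nearest principal start in GENCODE. Among the other genes that rose, the *Ankrd2* window holds 3 and the *Ankrd23* windows 0 and 2. The numbers thus overlapped between genes that fell and genes that rose. An E-box is common, since 72.3% of 32851 RefSeq promoter windows of 300 bases hold at least 1 on either strand. A match describes letters and does not show binding.

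All 3 FHL genes fell, *Fhl1* the furthest. *Fhl1* (ENSMUSG00000023092.16, chromosome X from 56731787 to 56793346) encodes the FHL protein most abundant in skeletal muscle, mutated in several human myopathies. It had 948, 960 and 950 CPM in myoblasts and 190, 196 and 180 CPM in myotubes. The D5 level was 19.8% of the D0 level, with a log2 fold change of -2.34 (SE 0.035, with edgeR's adjusted p = 2.8e-31), and 4.75% of the genes tested fell further. The annotation lists 10 transcripts of this gene, and the counts per gene do not separate them.

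*Fhl2* (ENSMUSG00000008136.14, chromosome 1 from 43123074 to 43196984), best known from heart as a cofactor of nuclear receptors and of SRF, had 123, 120 and 127 CPM in myoblasts and 41.3, 40.5 and 39.3 CPM in myotubes. Its log2 fold change was -1.61 (SE 0.039, with edgeR's adjusted p = 8.4e-26). The D5 libraries stood at 32.7% of the D0 level, again without overlap. *Fhl3* (ENSMUSG00000032643.12, chromosome 4 from 124700701 to 124708611), whose protein binds actin and transcription factors including MyoD, had 86.9, 85.2 and 86.3 CPM in myoblasts and 41.7, 42.9 and 45.6 CPM in myotubes. This was 50.4% of the D0 level, with a log2 fold change of -0.99 (SE 0.041, with edgeR's adjusted p = 7.6e-20), and 16.3% of the genes tested fell further. Of its 50-base transcript sequences, 4.63% also occur in *Gm13898*, which had at most 2 counts in any library.

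The order of the falls was *Fhl1*, *Fhl2* and *Fhl3*, and their 95% intervals were -2.41 to -2.27, -1.69 to -1.53 and -1.07 to -0.91, which did not overlap, though the difference between the genes was not tested. In TPM, *Fhl1* led in both groups, with 68.8% ± 0.513 of the summed FHL level at D0 and 51.9% ± 1.36 at D5 (SD, n = 3 each). Below it, *Fhl3* had a higher mean than *Fhl2* at D5 with each length, but whether their libraries were separated depended on the length used. *Fhl2* had 225 ± 8.00 TPM and *Fhl3* 177 ± 2.49 TPM at D0, and 66.0 ± 2.76 TPM and 80.0 ± 3.06 TPM at D5 (SD, n = 3 each), and with this length the libraries of these genes overlapped in neither group. With the longest transcript as the length they overlapped at D5, where *Fhl2* had 21.5% ± 0.467 and *Fhl3* 21.8% ± 1.34 of the family (SD, n = 3 each), while *Fhl2* stayed above *Fhl3* at D0. Without a length *Fhl2* had 14.8% ± 0.339 and *Fhl3* 16.0% ± 1.08 at D5, without overlap (SD, n = 3 each). The summed level of the family was 1289 ± 23.3 TPM in myoblasts and 303 ± 6.47 TPM in myotubes (SD, n = 3 each). The other FHL genes were hardly expressed, *Fhl4* at 22 to 63 counts per library (log2 fold change -0.07, adjusted p = 0.76 in edgeR's test) and *Fhl5* with at most 2.

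The promoter of *Fhl2* is shown because SRF, a factor that FHL2 protein binds, recognises the CArG box, and both *Fhl2* windows hold 1. The window is chr1:43163912-43164211 of GRCm38, minus strand, written 5′ to 3′ along the gene. Its start site is that of a principal GENCODE transcript, and capitals mark the CArG box and an E-box.
*Fhl2* promoter: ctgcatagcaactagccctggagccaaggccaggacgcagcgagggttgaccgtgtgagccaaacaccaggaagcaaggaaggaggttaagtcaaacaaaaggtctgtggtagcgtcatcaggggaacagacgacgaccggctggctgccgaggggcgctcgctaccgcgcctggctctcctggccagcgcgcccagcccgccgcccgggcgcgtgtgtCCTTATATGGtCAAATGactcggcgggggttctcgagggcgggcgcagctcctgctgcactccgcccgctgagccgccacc
The CArG box, CCTTATATGG, begins at -31 and the E-box, CAAATG, at -20. The upstream *Fhl2* window has CCAAAAAAGG at -96 and a MEF2 site, TTATTTATAA, at -31 that overlaps a TATAAA match on the other strand. A CArG box was found in 1.63% and a MEF2 site in 3.19% of all windows, both strands searched. Of the other members, 1 of the 2 *Fhl1* windows holds a CArG box, CCTAAAATGG, but its start site lies 47554 bases from the nearest principal start.

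**Figure D2:**
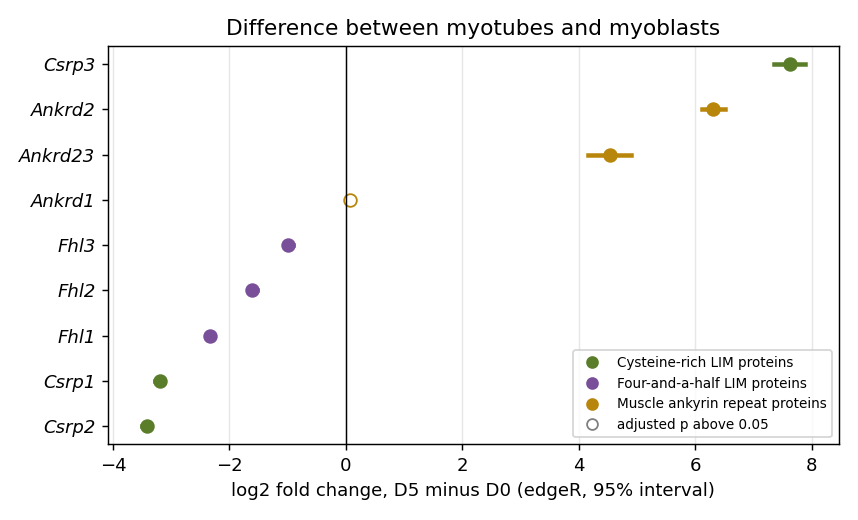
Log2 fold change of D5 against D0 from edgeR for the 9 genes, with the 95% interval as a bar (narrower than the point for most genes), colored by family. An open point marks *Ankrd1*, the gene with an adjusted p above 0.05, and the 3 FHL genes lie between -2.34 and -0.99.

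The MARP family split into a member at a high level in both groups and members that rose from near absence. *Ankrd1* (ENSMUSG00000024803.8, chromosome 19 from 36111961 to 36120099) encodes cardiac ankyrin repeat protein, a titin-binding protein and a common readout of YAP. It had 916, 909 and 873 CPM in myoblasts and 959, 955 and 915 CPM in myotubes. The groups overlapped, since D5 replicate 3 lay just below D0 replicate 1. The log2 fold change was 0.07 (95% interval 0.00 to 0.14), with an adjusted p = 0.054 in edgeR's test, and a two-sided exact permutation test of log2 CPM gave p = 0.2, where 0.1 is the smallest p that 3 against 3 allows.

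This borderline value moved with single choices. Without D5 replicate 3 the log2 fold change of *Ankrd1* was 0.09 (adjusted p = 0.017 in edgeR's test), and DESeq2 gave 0.08 (adjusted p = 0.022). It was -0.02 with total counts in place of TMM and -0.48 when the spike-ins set the scale (adjusted p = 0.66 and 0.48 in edgeR's test), and in TPM the mean went from 1077 ± 15.9 to 1013 ± 38.5 (SD, n = 3 each). By level *Ankrd1* stood above 99.5% of the genes tested at D0 and above 99.4% at D5.

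*Ankrd2* (ENSMUSG00000025172.2, chromosome 19 from 42036000 to 42045110) encodes the skeletal muscle member, known for its rise in stretched muscle. Myoblast libraries gave it 18, 20 and 24 counts and myotube libraries 1022, 1066 and 996. As a level this was 0.517 ± 0.0681 CPM against 41.3 ± 1.70 CPM (SD, n = 3 each). The log2 fold change was 6.31 (SE 0.097, with edgeR's adjusted p = 5.1e-31), or 79.2-fold, and 2.54% of the genes tested rose further.

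*Ankrd23* (ENSMUSG00000067653.12, chromosome 1 from 36530188 to 36536883) encodes diabetes-related ankyrin repeat protein. It had 9, 14 and 20 counts at D0 and 210, 224 and 190 counts at D5, so every D5 library was higher. The mean was 0.357 ± 0.130 CPM in myoblasts and 8.36 ± 0.726 CPM in myotubes (SD, n = 3 each). The difference on the log2 scale was 4.53 (SE 0.18, with edgeR's adjusted p = 2.4e-20), or 23.1-fold. Of the exonic length of *Ankrd23*, 78.2% is shared on the same strand with *Gm42417*, a gene that had 0 counts in every library. With 0 counts on *Gm42417*, no read was counted for both genes. Whether reads in the shared part were left out or given to *Ankrd23* alone is not stated.

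Taking only the 588 exonic bases that *Gm42417* does not share, a length chosen after the data were seen, *Ankrd23* would have 2.10 ± 0.795 TPM at D0 and 44.1 ± 3.67 TPM at D5 in place of 0.459 ± 0.173 and 9.61 ± 0.799 TPM (SD, n = 3 each). Its fold change does not depend on this length, but its place among the other genes does.

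*Ankrd1* made up 99.8% ± 0.0392 of the summed MARP level in TPM at D0 and 89.2% ± 0.324 at D5 (SD, n = 3 each). *Ankrd2* went from 0.146% ± 0.0231 to 9.92% ± 0.286 (SD, n = 3 each). The summed level of the family was 1079 ± 15.6 TPM in myoblasts and 1135 ± 41.4 TPM in myotubes (SD, n = 3 each).

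The promoters of *Ankrd1* and *Ankrd2*, both on chromosome 19, are shown because *Ankrd1* was not called while *Ankrd2* rose 79.2-fold. Both windows are from GRCm38 and run 5′ to 3′ along the gene, *Ankrd1* at chr19:36119795-36120094 on the minus strand and *Ankrd2* at chr19:42035777-42036076 on the plus strand. Capitals mark E-boxes (CANNTG), the MCAT element CATTCC that TEAD factors bind (GGAATG where it lies on the other strand) and TATAAA.
*Ankrd1* promoter: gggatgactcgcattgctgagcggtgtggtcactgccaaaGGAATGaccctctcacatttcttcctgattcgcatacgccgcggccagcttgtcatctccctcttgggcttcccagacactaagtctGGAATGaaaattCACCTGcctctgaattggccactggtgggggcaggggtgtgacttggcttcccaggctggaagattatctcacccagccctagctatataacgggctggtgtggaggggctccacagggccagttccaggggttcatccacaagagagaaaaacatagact
*Ankrd2* promoter: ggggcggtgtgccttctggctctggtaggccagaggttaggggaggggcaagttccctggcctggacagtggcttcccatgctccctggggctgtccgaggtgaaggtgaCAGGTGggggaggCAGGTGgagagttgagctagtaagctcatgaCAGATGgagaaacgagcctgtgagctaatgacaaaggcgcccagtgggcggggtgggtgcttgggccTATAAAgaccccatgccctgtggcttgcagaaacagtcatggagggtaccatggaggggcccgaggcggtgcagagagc
The *Ankrd1* window holds 2 MCAT elements, at -210 and -123, and 1 E-box at -111, and the *Ankrd2* window holds 3 E-boxes, at -140, -127 and -96, a TATAAA at -29 and no MCAT element. Each of the 2 *Ankrd23* windows holds 1 MCAT element. An MCAT element was found in 14.7% and TATAAA in 13.6% of all windows. Over the 9 genes, 8 matched the RefSeq table, with 13 windows, and *Csrp2* did not.

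**Figure D3:**
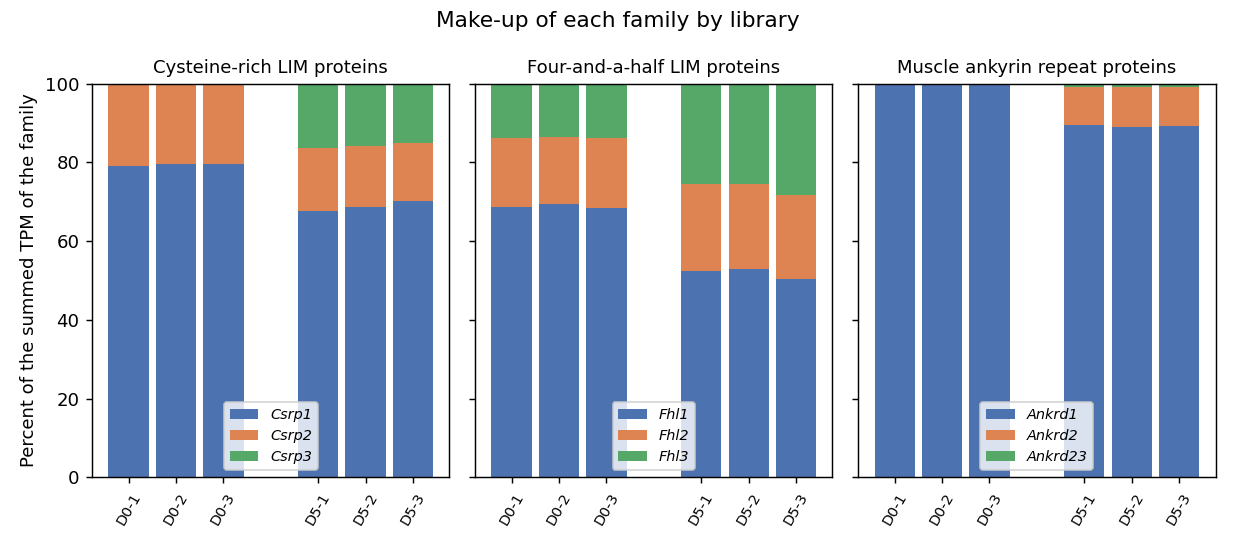
Percent of the summed TPM of each family taken by each member, 1 stacked bar per library (D0 replicates 1 to 3, then D5 replicates 1 to 3). *Csrp3* appears at D5 with 15.8%, *Fhl3* and *Fhl2* take a larger part of the FHL level at D5, and *Ankrd1* goes from 99.8% to 89.2% of the MARP level.

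Set side by side in TPM, the 9 genes held 4366 ± 50.4 TPM at D0 and 1662 ± 44.6 TPM at D5 (SD, n = 3 each). At D0 the order was *Csrp1*, *Ankrd1*, *Fhl1*, *Csrp2*, *Fhl2*, *Fhl3*, *Ankrd2*, *Ankrd23* and *Csrp3*, and no neighbours in this order overlapped between their libraries. At D5 it was *Ankrd1*, *Fhl1*, *Csrp1*, *Ankrd2*, *Fhl3*, *Fhl2*, *Csrp3*, *Csrp2* and *Ankrd23*. There *Fhl1* (149 to 162 TPM) and *Csrp1* (149.7 to 159.8 TPM) were not separated, nor were *Csrp3* and *Csrp2*. These orders hold for the union of exons as the length. With its own exonic bases alone, *Ankrd23* at D5 would stand between *Fhl2* and *Csrp3*, and at D0 its mean of 2.10 TPM (libraries at 1.39, 1.96 and 2.96) would pass that of *Ankrd2* at 1.57 TPM (1.44 to 1.84), with overlapping libraries. *Ankrd1* took 24.7% ± 0.367 of the summed level at D0 and 60.9% ± 0.697 at D5 (SD, n = 3 each), and *Csrp1* 36.3% ± 0.259 and 9.29% ± 0.556 (SD, n = 3 each).

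Among 11878 other genes that averaged 100 counts or more in a group, the genes closest in profile were found by the Euclidean distance of the 6 centred log2 CPM values. With 2 groups this measure mostly compares the size of the change, in log2 CPM with a prior count of 2. That prior shrinks changes from near 0 counts, where nearest genes can differ in edgeR's log2 fold change. *Kcnj12* had 9.69 beside 7.62 for *Csrp3*, and *Lrrc32* 7.58 beside 6.31 for *Ankrd2*. The nearest were *Knstrn* (distance 0.10) and *Cdt1* (0.106) to *Csrp1*, *Glipr2* (0.118) and *Krt80* (0.139) to *Csrp2*, and *Kcnj12* (0.215) and *Gm38534* (0.287) to *Csrp3*. For the FHL genes they were *Pkp2* (0.0511) and *Tppp3* (0.0799) to *Fhl1*, *Slbp* (0.0482) and *Ier3* (0.0652) to *Fhl2*, and *Irf2bp2* (0.0411) and *Sf3a2* (0.0461) to *Fhl3*. *Ankrd1* lay nearest to *Uck1* (0.0254) and *Nek1* (0.0326), *Ankrd2* to *Lrrc32* (0.142) and *Inpp4b* (0.199), and *Ankrd23* to *Pak3* (0.380) and *Rab40b* (0.385).

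Binding partners of these proteins were described from a list of 16 genes of the Z-disc, titin and the cytoskeleton. Here 13 rose and 3 fell, and the median log2 fold change was 2.11, against 0.00 over all genes tested, of which 42.2% rose and 40.8% fell. *Actn2*, the α-actinin of the Z-disc, had 2 to 3 counts per myoblast library and 48.8 ± 5.68 CPM in myotubes (SD, n = 3). *Tcap*, the titin cap that binds muscle LIM protein, had 1 to 2 counts per myoblast library and 28.4 ± 3.27 CPM in myotubes (SD, n = 3), and *Casq2*, a calcium-binding protein, had a log2 fold change of 9.34. The lower partners were *Ilk* (-1.15), *Itgb1* (-0.78) and *Ybx1* (-0.63), genes of adhesion and of RNA binding, of which *Ybx1* was not called when the spike-ins set the scale (-1.22, adjusted p = 0.054 in edgeR's test).

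Of 27 other LIM proteins of actin filaments, Z-discs and adhesions, 25 were tested, and 10 rose while 13 fell, around a median log2 fold change of -0.29. Over all genes tested 42.2% rose and 40.8% fell, to which these counts are near. *Ldb3* (1.97) is on this list and on that of the binding partners, and its rise is counted in both. The actin-binding LIM proteins *Ablim3* (8.71) and *Ablim1* (6.39) were among the largest rises in log2 fold change. *Lasp1*, which binds actin at adhesions, fell most, with 653 ± 1.35 CPM in myoblasts and 91.5 ± 3.99 CPM in myotubes (SD, n = 3 each), followed by the adhesion proteins *Tgfb1i1* (-2.71) and *Lpp* (-2.67).

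SRF, its cofactors and its targets of smooth muscle and the cytoskeleton made a list of 16 genes. Of these 14 were lower and 1 higher at D5, with a median log2 fold change of -1.63. Over all genes tested 40.8% were lower and 42.2% higher. *Cnn1* (-7.23), *Actg2* (-6.66) and *Tagln* (-3.98), genes of the contractile apparatus of smooth muscle, had the largest falls. The gene that rose was *Tpm1*, a tropomyosin also used in striated muscle, with 1049.8 ± 13.8 CPM in myoblasts and 1595 ± 43.0 CPM in myotubes (SD, n = 3 each). It was at 0.05 (adjusted p = 0.95 in edgeR's test) on the log2 scale when the spike-ins set the scale. The list held no sarcomeric actin, and the myotube marker *Acta1* rose (log2 fold change 7.32).

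Among 15 YAP, TEAD and VGLL factors and common YAP targets, 8 were lower and 4 higher at D5, with a median log2 fold change of -0.32. Over all genes tested 40.8% were lower and 42.2% higher. The targets *Ccn2* (listed as *Ctgf*) and *Ccn1* (listed as *Cyr61*), matricellular proteins that are read out together with *Ankrd1*, both fell. *Ccn2* had 1796 ± 43.1 CPM in myoblasts and 58.5 ± 4.01 CPM in myotubes, and *Ccn1* 259 ± 11.3 CPM and 86.2 ± 8.09 CPM (SD, n = 3 each). *Ankrd1* itself was at 899 ± 23 CPM and 943 ± 24.6 CPM (SD, n = 3 each). Of the other targets on the list, *Tgfb2* (log2 fold change -1.89) and *Axl* (-0.75) fell, *Amotl2* rose slightly (0.18) and *Lats2* was not called (0.04). The factors also went both ways. *Tead2* (log2 fold change -1.59), *Vgll3* (-0.63), *Yap1* (-0.39) and *Tead1* (-0.32) fell, and *Tead3* and *Vgll2* were not called. *Tead4* rose from 5.29 ± 0.217 to 107 ± 0.402 CPM and *Wwtr1*, which encodes TAZ, from 123 ± 2.71 to 318 ± 3.79 CPM (SD, n = 3 each). *Vgll4* was at 0.36 on the log2 scale, and at -0.21 when the spike-ins set the scale, where *Wwtr1* at 0.81 was no longer called (adjusted p = 0.22 in edgeR's test).

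**Figure D4:**
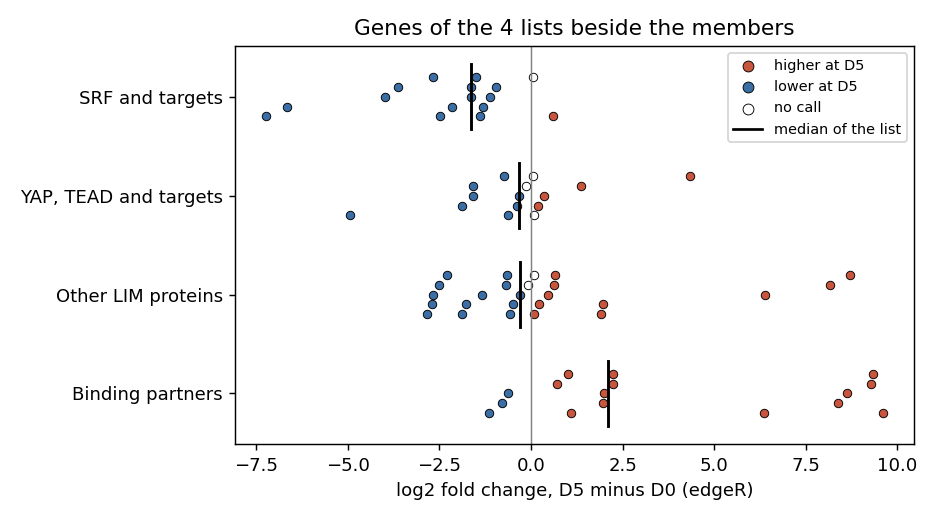
Log2 fold change of D5 against D0 from edgeR for each tested gene of the 4 lists, 1 point per gene, filled red where higher and blue where lower with an adjusted p under 0.05 and open otherwise. A black line marks the median of each list (2.11 for binding partners, -0.29 for other LIM proteins, -0.32 for YAP and TEAD genes and -1.63 for SRF with its smooth muscle and cytoskeletal targets). Points are spread vertically only to separate them.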

How the data were processed

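Total RNA of 6 C2C12 samples was sequenced. The deposited values are raw counts per gene, which the authors obtained with featureCounts after alignment to GRCm38. The labels name Tophat2 and the paper's methods HISAT2, and the annotation release, strand setting and multi-mapping rules are not given in the sources used here. The 92 ERCC rows (0.720% to 2.09% of counts) and an unnamed row holding each column's total entered neither library sizes nor tests.

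TMM factors, CPM, fold changes and p-values came from edgeR 4.0.16 in R 4.3.3 after filterByExpr, adjusted by the Benjamini-Hochberg method over 16290 genes. Each SE was taken from the log2 fold change and its F statistic. TPM used the union of exons in GENCODE M21 (GRCm38), matched by Ensembl identifier for 99.9% of gene rows. Promoters are from RefSeq (GRCm38.p6). Alternatives were DESeq2 1.42.0, upper-quartile factors, total counts, ERCC scaling, no filter, at least 10 counts in every library, the replicate number as a block, each library left out, and other gene lengths. Chi-square tests between replicates gave 2.28 to 3.71 per degree of freedom, above sampling noise.

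The genes, lists, rule and tests were chosen with earlier results of these data known. Named were the 9 genes, the 3 largest called rises and falls of each list that averaged 100 counts or more in a group, the markers and the 2 nearest profiles per gene. Genes outside this rule were named after their values were seen, and 1 gene that the rule names is not reported here. Counts were also simulated with 200 genes changed 2-fold, up and down in equal number. Of the changed genes among the 16001 tested, 92.9% were recovered, and 4.21% of the calls fell on unchanged genes. The data held 13510 calls, so the simulation does not show how the scaling behaves when so many genes change.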

Additional observations from a re-analysis of the deposited data

How the results depend on the processing

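The 5 lower and 3 higher genes kept direction and call in every alternative that tested them, with Benjamini-Hochberg adjusted p of at most 0.012 (*Fhl3*, ERCC scaling). With at least 10 counts in every library 1 gene was higher, *Ankrd2*, because *Csrp3* and *Ankrd23* had fewer counts at D0 and were not tested. *Ankrd1* was at -0.02 with total counts and -0.48 with ERCC scaling, and from 0.04 to 0.09 without single libraries. ERCC scaling left 10 higher and 2 lower binding partners, 5 higher and 8 lower other LIM genes, 0 higher SRF genes (also 0 at an unadjusted p under 0.05 in edgeR's test, and 1 by DESeq2 with its own scaling), and 1 higher and 5 lower YAP genes, and 5560 genes were called in all against 13510. The ERCC share of counts was 0.859%, 0.828% and 0.726% in the D0 libraries and 1.2%, 0.72% and 2.09% in the D5 libraries. ERCC scaling thus carries this spread within D5 into the levels. The cause of the fewer calls was not tested.

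The replicate numbers share no stated culture. Deviations of same-numbered libraries correlated at 0.0329, 0.0645 and 0.0277, each library best with its own number. These correlations were small and were not tested. With 3 libraries per group few other orders are possible, so they do not show a pairing. With the replicate number as a block, 5 of the genes were lower and 4 higher, the fourth being *Ankrd1* at 0.07 (adjusted p = 0.026 in edgeR's test), and 13558 genes were called in all.

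Shares of the leading members, the order of *Csrp2* against *Csrp3* at D5 and the separation of *Fhl2* from *Fhl3* at D5 moved with the gene length. With the longest transcript, *Csrp1* had 72.4% at D0 and 64.0% at D5, *Fhl1* 72.5% and 56.7%, and *Ankrd1* 99.9% and 92.1%. Without length, the shares were 77.6% and 64.1%, 82.0% and 69.2%, and 99.9% and 95%. Leaving out 1 library moved none of them by more than the spread between replicates. Depth limits the D0 levels of *Csrp3*, *Ankrd2* and *Ankrd23* most, with 18, 62 and 43 counts in sum.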
